A study of Mus musculus with 64 samples.

Results

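The 10 genes described here are type I interferon-stimulated genes of mouse liver: Ifit1, Ifit2, Ifit3, Isg15, Irf7, Usp18, Rsad2, Oas1a, Ifi27 and Stat2. They were taken by symbol from a table of UMI counts (unique molecular identifiers, one per captured transcript molecule) for 55487 genes, of which 23436 had at least 1 UMI. The rows were matched by gene symbol alone, but the list of symbols was chosen with earlier results of these data known.

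Type I interferons are cytokines that cells release after their nucleic acid sensors detect viral or misplaced RNA or DNA. They bind a receptor of IFNAR1 and IFNAR2, whose kinases phosphorylate STAT2. The complex ISGF3, which holds STAT2 and IRF9, binds an interferon-stimulated response element (ISRE) in the promoters of interferon-stimulated genes. Among the products are antiviral effectors (the IFIT proteins, viperin from Rsad2, the oligoadenylate synthetases), the ubiquitin-like modifier ISG15, its protease USP18, which also dampens signalling at the receptor, and IRF7, a transcription factor that raises interferon production. In liver, hepatocytes and the resident macrophages and endothelial cells respond to interferon.

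The livers came from male C57BL/6J mice fed ad libitum. All mice had been given AAV8, an adeno-associated virus vector that mainly reaches hepatocytes, 4 weeks before their livers were taken. In the sh-Acsf3 mice the vector expressed a short hairpin RNA against Acsf3, which lowers that gene in liver only, and the sh-Ctl mice were the matching controls. The ACSF3 protein is a malonyl-CoA synthetase of mitochondria. Collection ran every 3 h from ZT0 to ZT21, where zeitgeber time (ZT) counts hours from the onset of light. Each treatment had 4 replicates at each of the 8 times, so there were 64 libraries. Liver that had received no virus was not analysed here, and the promoter of the hairpin and the target of the control hairpin were not given in the sources used here. The labels do not state that every replicate is a separate animal, so the p-values measure the spread between libraries, which may be technical in part. These are bulk libraries, so fewer cells of a type and less RNA per cell cannot be told apart.

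The sh-Ctl libraries held between 1.48 and 6.06 M UMIs, with a median of 3.13 M. The sh-Acsf3 libraries were shallower, with a median of 2.03 M and a range from 0.839 to 9.35 M. Levels are given as CPM, UMIs per M of a library total scaled by TMM, a method that aligns the bulk of genes between libraries. Acsf3 itself went from 11.3 ± 2.60 CPM in sh-Ctl to 2.55 ± 1.72 CPM in sh-Acsf3 (SD, n = 32 each), a ratio of means of 22.6%. The fitted difference of Acsf3 was -2.23 ± 0.13 (log2, SE). Its adjusted p was 1.82e-21 (edgeR quasi-likelihood test with Benjamini-Hochberg adjustment). The acute-phase gene Saa1 reached 2086 to 4191 CPM in 4 libraries, all sh-Ctl (replicate 1 at ZT9, and the libraries numbered 2 at ZT12, ZT15 and ZT18), and no more than 250.2 CPM in any other. Exocrine pancreas genes summed to 219 to 9651 CPM in 8 libraries (2 sh-Ctl, 6 sh-Acsf3) and to no more than 41.6 CPM in the rest.

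The promoters are shown first because the ISRE links these genes to interferon signalling. The ISRE core was searched as GAAA and GAAA with any 2 bases between them (on the reverse strand TTTC and TTTC with the same gap), on both strands and with overlapping matches counted, in windows from 250 bases before to 50 bases after each annotated start (RefSeq, GRCm38.p6). Of the 10 genes, 8 had a window in that table, and 6 of the 8 held the motif: Ifit1, Ifit3, Isg15, Rsad2, Oas1a and Stat2. Of all 27025 genes with a window 3.99% held it, and of all 32851 windows 3.44% did. Ifit2 and Irf7 had windows without these letters, and Usp18 and Ifi27 had no entry. The stretches around the matches read 5′ to 3′ along each gene's own strand, with the matches in capitals:
Ifit1, chr19:34640740-34640858, plus strand: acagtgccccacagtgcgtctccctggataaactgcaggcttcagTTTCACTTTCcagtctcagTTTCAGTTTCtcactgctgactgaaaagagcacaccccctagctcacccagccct
Ifit3, chr19:34583328-34583461, plus strand: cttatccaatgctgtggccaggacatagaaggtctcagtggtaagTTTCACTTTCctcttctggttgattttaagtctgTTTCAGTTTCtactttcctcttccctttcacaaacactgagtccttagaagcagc
Isg15, chr4:156200830-156200941, minus strand: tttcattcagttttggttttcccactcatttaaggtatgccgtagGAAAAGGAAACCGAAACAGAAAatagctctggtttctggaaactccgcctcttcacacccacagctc
Rsad2, chr12:26456518-26456617, minus strand: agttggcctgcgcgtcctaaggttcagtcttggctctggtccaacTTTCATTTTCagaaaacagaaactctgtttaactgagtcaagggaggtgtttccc
Oas1a, chr5:120907526-120907590, minus strand: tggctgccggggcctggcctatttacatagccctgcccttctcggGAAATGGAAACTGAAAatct
Stat2, chr10:128270248-128270330, plus strand: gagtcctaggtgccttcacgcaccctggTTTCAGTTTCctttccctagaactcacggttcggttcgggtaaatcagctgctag

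Ifit1 and Ifit3 each carried 2 separate matches, and in both genes these were TTTCACTTTC followed by TTTCAGTTTC. In Ifit1 they began 104 and 85 bases before the start, and in Ifit3 156 and 122 bases before it. Isg15 carried 3 overlapping matches and Oas1a 2, both on the gene's own strand, within 78 and 20 bases of the start. Rsad2 and Stat2 had 1 match each, beginning 120 and 222 bases before the start. Of 54 other interferon-stimulated genes with a window, 25 held the motif. A second motif, TTCNNNGAA, is the core of the gamma-activated sequence (GAS) of interferon-gamma targets. It was in 2 of the 8 windowed genes, in 9.55% of all genes with a window and in 8.30% of all windows.

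In GRCm38 (GENCODE M21), Ifit2 (ENSMUSG00000045932), Ifit3 (ENSMUSG00000074896) and Ifit1 (ENSMUSG00000034459) lie in this order on chromosome 19 between 34550694 and 34650009, all on the plus strand. Rsad2 (ENSMUSG00000020641) spans 26442746 to 26456452 on chromosome 12 (minus strand), and Ifi27 (ENSMUSG00000064215) spans 103434211 to 103440239 on the same chromosome (plus strand). Irf7 (ENSMUSG00000025498) spans 141262706 to 141266481 on the minus strand of chromosome 7, where Phrf1 overlaps it on the plus strand. Usp18 (ENSMUSG00000030107) spans 121245906 to 121270917 on the plus strand of chromosome 6, where Gm44148 overlaps it on the minus strand. Whether the authors' counting used strand was not given in the sources used here, so reads of these 2 overlaps may be shared. Stat2 (ENSMUSG00000040033) lies on chromosome 10 from 128270559 to 128292849, Oas1a (ENSMUSG00000052776) on chromosome 5 from 120896256 to 120907521, and Isg15 (ENSMUSG00000035692) on chromosome 4 from 156199424 to 156200818. No gene of the annotation overlapped these 3, the Ifit genes, Rsad2 or Ifi27.

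The first comparison asks how the knockdown of Acsf3 changed these genes over the whole day. Ifit1, Rsad2 and Irf7 were lower in sh-Acsf3 liver, to 60.2%, 67.3% and 77.0% of control by the fitted averages, and none of the 7 genes tested was higher. The 10 genes split by depth: 7 had enough UMIs to be tested (2144 to 23352 UMIs over all libraries), and Ifit2, Isg15 and Oas1a, with 195, 72 and 242 UMIs, did not pass the filter on low counts. Of the 7, 3 passed the edgeR test for the difference averaged over the 8 times, all lower. Among all 10097 tested genes 14.5% passed in either direction, 6.21% lower and 8.26% higher. The median averaged difference (log2, sh-Acsf3 minus sh-Ctl) was -0.38 over the 7 genes and -0.01 over all tested genes.

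Ifit1 binds viral RNA that lacks the host's cap methylation. Over 32 sh-Ctl libraries it ran from 4.34 to 79.5 CPM (median 15.0), and over 32 sh-Acsf3 libraries from 4.57 to 15.3 CPM (median 11.2). The sh-Acsf3 libraries thus lay in a narrow band inside the lower part of the control range, with an SD of 2.96 CPM against 14.1 CPM. The averaged difference was -0.73 ± 0.16 (log2, SE; edgeR adjusted p = 0.000539), and the fitted difference was below 0 at all 8 times. By sign alone, 4.32% of all tested genes were lower at all 8 times.

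**Figure D1:**
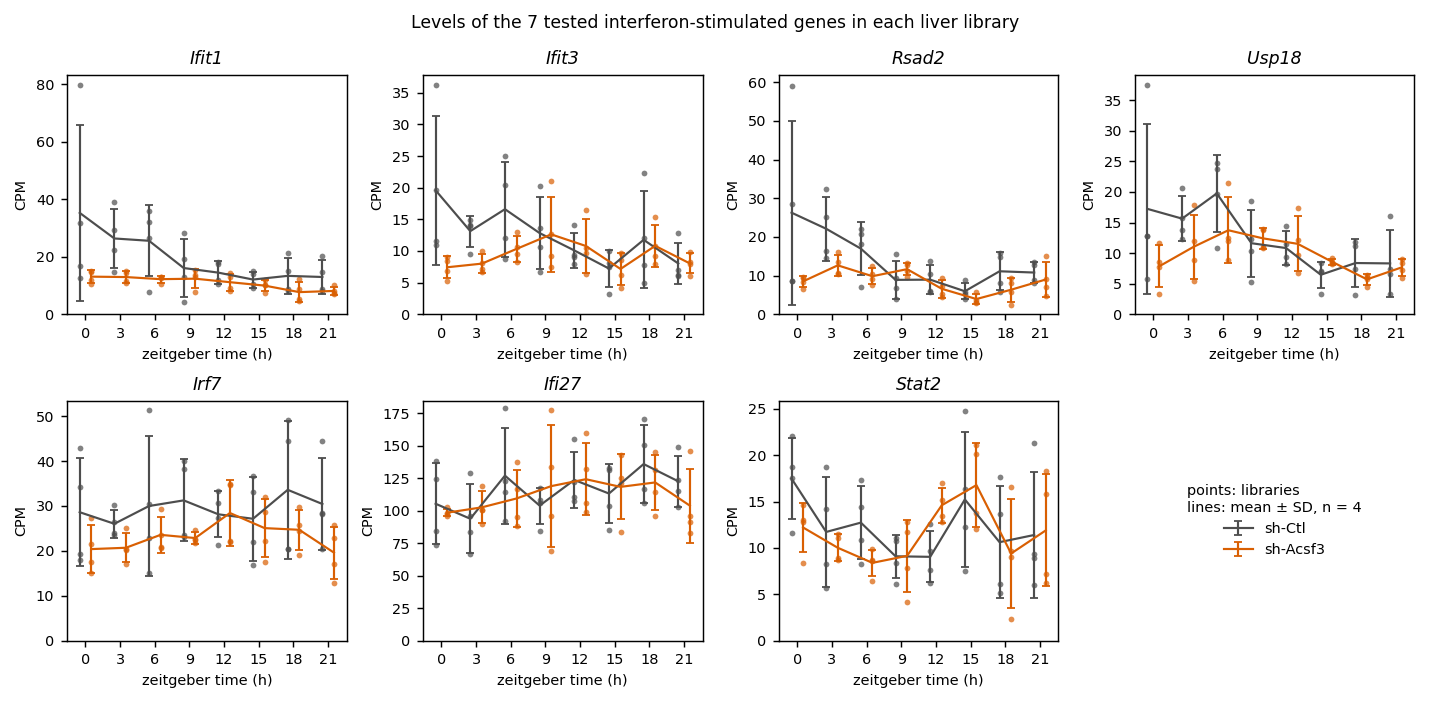
Levels in CPM of the 7 tested interferon-stimulated genes against zeitgeber time in hours, in sh-Ctl (grey) and sh-Acsf3 (orange) liver. Points are single libraries and lines with bars are means ± SD of 4 libraries; Ifit1, Ifit3, Rsad2 and Usp18 show their highest sh-Ctl library at ZT0, with Ifit1 at 79.5 CPM, and no such library in sh-Acsf3.

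At ZT0 the 4 sh-Ctl libraries held 79.5, 31.9, 16.9 and 12.7 CPM of Ifit1 and the 4 sh-Acsf3 libraries 15.1, 12.0, 10.4 and 14.7 CPM. At ZT3 they held 38.9, 29.2, 14.8 and 22.4 CPM against 11.7, 14.2, 15.0 and 10.8 CPM. At ZT6 they held 35.8, 32.1, 26.4 and 7.87 CPM against 12.6, 10.4, 12.8 and 12.9 CPM. At these 3 times the highest sh-Ctl library was more than 20 CPM above every sh-Acsf3 library, while the lowest sh-Ctl library at each time fell within or below the sh-Acsf3 range. From ZT9 to ZT21 the sh-Ctl means were 12.1 to 16.1 CPM and the sh-Acsf3 means 7.69 to 12.4 CPM, and the groups overlapped at every time.

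Rsad2 encodes viperin, which makes a chain-terminating nucleotide that stops viral polymerases. It ran from 3.84 to 59.1 CPM in sh-Ctl (median 9.84) and from 2.29 to 16.2 CPM in sh-Acsf3 (median 9.04), so the medians were close and the upper end differed. The averaged difference was -0.57 ± 0.16 (log2, SE; edgeR adjusted p = 0.00781), below 0 at 7 of 8 times. At ZT0 the 4 sh-Ctl libraries held 59.1, 28.5, 8.72 and 8.70 CPM against 8.29, 9.49, 6.62 and 9.60 CPM in sh-Acsf3. Both lower sh-Ctl libraries lay within the sh-Acsf3 range. At ZT3 the values were 32.4, 25.1, 14.4 and 16.5 CPM against 10.4, 13.5, 10.6 and 16.2 CPM, and at ZT9, where the fitted difference was 0.44, they were 9.36, 15.5, 6.79 and 3.86 CPM against 9.63, 12.6, 13.2 and 11.2 CPM.

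Ifit3 encodes a protein of the same family of tetratricopeptide-repeat proteins as IFIT1. It ran from 3.19 to 36.2 CPM in sh-Ctl (median 10.8) and from 4.18 to 21.0 CPM in sh-Acsf3 (median 8.84). Its averaged difference was -0.39 ± 0.14 (log2, SE) and did not pass, with an edgeR adjusted p of 0.0503. At ZT0 the sh-Ctl libraries held 36.2, 19.6, 11.6 and 10.9 CPM and the sh-Acsf3 libraries 6.82, 9.12, 5.27 and 8.47 CPM, which do not overlap. Among the 56 combinations of gene and time this was the only separation with lower sh-Acsf3 values. Of all tested genes 1.97% were separated this way at ZT0, and 2.16% of all gene and time combinations were. From ZT9 on the differences were between -0.19 and 0.10 (log2), with values such as 9.02, 14.0, 9.38 and 7.88 CPM against 16.5, 6.40, 9.75 and 10.5 CPM at ZT12.

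Ifit2 and Oas1a, 2 further effectors, were too sparse for the test. Ifit2 had 93 UMIs over the sh-Ctl libraries and 102 over those of sh-Acsf3, or 0.94 and 1.04 UMIs per M of the pooled totals. Oas1a, whose product makes the second messenger that activates RNase L, had 125 and 117 UMIs, or 1.26 and 1.19 per M. Between 0 and 5 libraries per treatment held no UMI of these genes, and a count of 0 allows up to 0.321 CPM in the deepest library and 3.57 CPM in the shallowest (3 UMIs of the total, counting error only). In a fit with no filter on low counts their averaged differences were 0.19 ± 0.25 and 0.00 ± 0.24 (log2, SE), and neither passed.

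Isg15 and Usp18 act as a pair, since USP18 removes ISG15 from proteins. Isg15 had only 48 UMIs over the sh-Ctl libraries and 24 over those of sh-Acsf3 (0.48 and 0.24 per M of the pooled totals), with 11 and 19 of 32 libraries at 0. It was tested only in the fit with no filter, at -1.14 ± 0.44 (log2, SE; edgeR adjusted p = 0.0932). Usp18 ran from 3.18 to 37.5 CPM in sh-Ctl (median 11.3) and from 3.39 to 21.5 CPM in sh-Acsf3 (median 8.91). Its averaged difference of -0.29 ± 0.15 (log2, SE) did not pass (edgeR adjusted p = 0.182). At ZT0 its sh-Ctl libraries held 37.5, 12.9, 12.8 and 5.80 CPM and its sh-Acsf3 libraries 11.7, 7.66, 8.52 and 3.39 CPM, and these ranges overlap.

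Irf7 and Stat2 are the 2 transcription factors of the set. Irf7 ran from 15.1 to 51.5 CPM in sh-Ctl (median 27.8) and from 12.9 to 34.8 CPM in sh-Acsf3 (median 22.3). It was lower by -0.38 ± 0.11 (log2, SE; edgeR adjusted p = 0.0111), with a difference below 0 at 7 of 8 times. Its differences were spread over the day, from 0.02 at ZT12 to -0.69 at ZT21, where the sh-Ctl libraries held 44.6, 28.3, 28.5 and 20.4 CPM and the sh-Acsf3 libraries 17.0, 22.9, 25.7 and 12.9 CPM. Those groups overlap, as they did at every time for Irf7. Without the 4 sh-Ctl libraries with high Saa1, in which Irf7 was at 33.3 to 49.1 CPM, its difference was -0.30 with an edgeR adjusted p of 0.0579.

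Stat2, which carries the activating domain of ISGF3, averaged 12.2 ± 5.37 CPM in sh-Ctl and 11.5 ± 4.41 CPM in sh-Acsf3 (SD, n = 32 each). Its difference was -0.06 with a 95% interval from -0.33 to 0.20 (log2). At ZT12 its 4 sh-Acsf3 libraries (17.0, 13.5, 15.2 and 12.8 CPM) all lay above its 4 sh-Ctl libraries (12.5, 7.63, 9.70 and 6.25 CPM), where the edgeR adjusted p was 0.452. Of all tested genes 3.83% were separated upward at ZT12, and over all times 2.78% of the gene and time combinations were. Ifi27, which encodes a small hydrophobic protein of the ISG12 family, averaged 116 ± 26.6 CPM in sh-Ctl and 112 ± 24.9 CPM in sh-Acsf3. Its difference was -0.04 with a 95% interval from -0.19 to 0.12 (log2), so a change of the size seen for Ifit1 lies outside that interval. The sign of the Ifi27 value turned with scaling by library size only (0.01), and that of Stat2 without the libraries numbered replicate 2 (0.06).

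The differences at the single times are given next. Of the 21 differences of the 7 genes at ZT0, ZT3 and ZT6, 20 were below 0, and of the 35 from ZT9 to ZT21, 19 were. By time, 3 of the 7 were below 0 at ZT9, 2 at ZT12, 3 at ZT15, 6 at ZT18 and 5 at ZT21. The share of all tested genes below 0 was computed only for the averaged difference, where it was 52.7%, and not for single times. The 7 genes were measured in the same libraries, so these counts are descriptions and not counts of separate observations. The median of the 7 genes was -1.09 at ZT0, -0.51 at ZT3 and -0.68 at ZT6 (log2). It was -0.50 at ZT18 and -0.23 at ZT21, and between 0.02 and 0.11 at ZT9, ZT12 and ZT15. Without sh-Ctl ZT0 replicate 1 the ZT0 median was -0.60 and Ifi27 was at 0.07. The ZT3 median was -0.32 without sh-Ctl ZT3 replicate 1 and -0.77 without sh-Acsf3 ZT3 replicate 3. The median over all tested genes stayed between -0.01 and 0.00 at each time. With 4 libraries against 4, 1 of the 56 combinations passed, Rsad2 at ZT0 (-1.70 ± 0.41, edgeR adjusted p = 0.0318). Of all gene and time combinations 0.384% passed, and at ZT0 0.515% of genes passed in either direction and 0.0495% lower. The adjusted p at ZT0 was 0.0535 for Ifit3 (-1.48 ± 0.38) and 0.0891 for Ifit1 (-1.49 ± 0.41) by the same edgeR test.

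**Figure D2:**
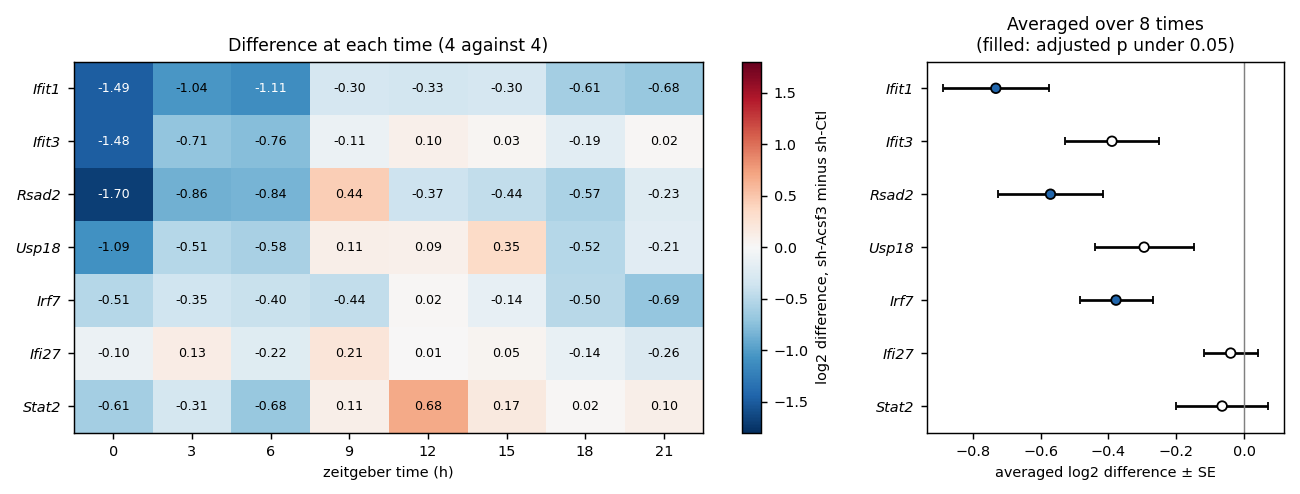
Differences between sh-Acsf3 and sh-Ctl (log2) for the 7 tested genes. Left, colour and number give the difference at each zeitgeber time in hours (4 libraries against 4); right, points and bars give the difference averaged over 8 times ± SE, filled where the adjusted p was under 0.05. The darkest cells are Rsad2, Ifit1 and Ifit3 at ZT0, from -1.70 to -1.48, and Ifi27 and Stat2 lie near 0 on the right.

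The control library ZT0 replicate 1 was the highest of all 64 for Ifit1, Ifit3, Rsad2 and Usp18. Without it the ZT0 difference became -0.95 for Rsad2 (edgeR adjusted p = 0.429), -0.71 for Ifit1, -1.01 for Ifit3 and -0.35 for Usp18. The averaged difference without it was -0.63 for Ifit1 (adjusted p = 0.000627), -0.48 for Rsad2 (0.0111) and -0.34 for Irf7 (0.0198), so these 3 still passed the edgeR test. The Rsad2 call at ZT0 was also lost without sh-Ctl ZT0 replicate 2 or without sh-Acsf3 ZT0 replicate 1, 2 or 3. A test that the 8 differences of a gene are equal passed for 0 of the 7 genes and for 0.0% of all genes (edgeR, adjusted p under 0.05). At an unadjusted p under 0.05 it held for 0 of the 7 and for 3.03% of all genes. Limma-voom and DESeq2 also gave 0, while the fit with no filter on low counts passed 5 of the 10 genes (Rsad2, Usp18, Ifit1, Stat2 and Ifit3) and 273 genes in all. A larger difference in the morning than in the evening is therefore a description of these values, whose test passed only in that fit.

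A 24 h cosine was fitted to each treatment to ask whether these genes followed the day. In sh-Ctl liver 4 of the 7 genes were rhythmic, and all 4 peaked in the first hours of the light phase. They were Rsad2 (amplitude 0.92 on the log2 scale, peak at ZT1.9, edgeR adjusted p = 7.43e-06), Usp18 (0.68, ZT4.2, 0.000242), Ifit1 (0.70, ZT2.8, 0.000378) and Ifit3 (0.49, ZT3.3, 0.0184). The fitted peak was 3.60 times the trough for Rsad2, 2.65 for Ifit1, 2.57 for Usp18 and 1.98 for Ifit3. Among all tested genes 19.4% were rhythmic in sh-Ctl. The share of all rhythmic genes that peaked in these hours was not computed, so the shared peak time is given as a description. The Ifit3 call was lost without sh-Ctl ZT6 replicate 1, at 25.1 CPM (adjusted p = 0.0525), without replicate 1, 3 or 4 of every group (0.261, 0.059 and 0.0696), and the Ifit1 call without replicate 1 of every group (0.101), all in the edgeR test. Without replicate 1 Ifi27 was rhythmic instead (amplitude 0.29, peak at ZT15.4, edgeR adjusted p = 0.0211). Irf7, Ifi27 and Stat2 had amplitudes of 0.04, 0.12 and 0.26 and did not pass (edgeR adjusted p = 0.958, 0.491 and 0.358).

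In sh-Acsf3 liver 1 of the 7 was rhythmic, Usp18 (amplitude 0.52, peak at ZT7.5, edgeR adjusted p = 0.0185), where 19.6% of all genes were. That call was lost without sh-Acsf3 ZT6 replicate 1, at 21.5 CPM (edgeR adjusted p = 0.0525), and without replicate 3 or replicate 4 of every group (0.0895 and 0.063). Amplitudes of the other 3 genes that cycled in sh-Ctl were 0.49 for Rsad2 (adjusted p = 0.0666), 0.27 for Ifit1 and 0.25 for Ifit3. Rsad2 did pass in sh-Acsf3 with DESeq2 (adjusted p = 0.0212), without replicate 1 of every group (edgeR, 0.0449), and without sh-Ctl ZT0 replicate 1, sh-Acsf3 ZT18 replicate 1 or sh-Acsf3 ZT21 replicate 1 (edgeR, 0.0306, 0.0448 and 0.0465). The difference in rhythm between treatments did not pass for any of the 7 genes or for any other gene tested with them (edgeR, adjusted p = 0.9995 for each of the 7), and limma-voom and DESeq2 gave 0 of the 7 as well. At an unadjusted p under 0.05 it held for 5 of the 7, namely Ifit1, Ifit3, Usp18, Rsad2 and Stat2, and for 4.27% of all genes. The absence of a call in sh-Acsf3 for Ifit1, Ifit3 and Rsad2 therefore does not show a difference in rhythm.

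**Figure D3:**
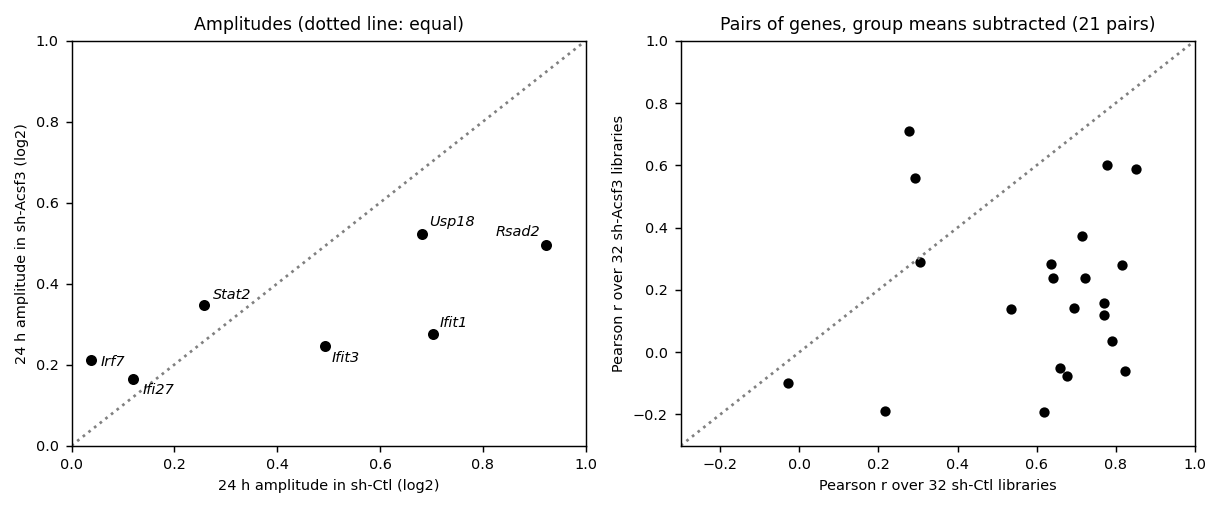
Left, 24 h amplitude (log2) of the 7 tested genes in sh-Acsf3 against sh-Ctl liver; Rsad2, Ifit1, Usp18 and Ifit3 lie below the dotted line of equality, and Irf7, Ifi27 and Stat2 above it. Right, Pearson correlation of each of 21 gene pairs over 32 sh-Acsf3 libraries against the same over 32 sh-Ctl libraries, after the mean of each treatment and time was subtracted; the medians are 0.16 and 0.68.

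Within a group the genes varied together among sh-Ctl libraries. After subtraction of the 16 group means, the 21 pairs of the 7 genes had a median Pearson correlation of 0.68 over 32 sh-Ctl libraries (range -0.03 to 0.85) and of 0.16 over 32 sh-Acsf3 libraries (range -0.19 to 0.71). Pairs with Stat2 had the lowest sh-Ctl values, with a median of 0.28. The points share libraries and their depth, so these correlations are given as descriptions, and their difference was not tested. Over replicate numbers 1 to 4, Ifit1 averaged 27.9, 22.8, 15.9 and 11.4 CPM in sh-Ctl. In sh-Acsf3 it averaged 12.4, 11.4, 10.3 and 9.67 CPM, the same order over a narrower range. Rsad2 averaged 19.9, 16.9, 11.2 and 7.54 CPM in sh-Ctl and 9.53, 8.83, 7.09 and 8.78 CPM in sh-Acsf3. Ifi27 averaged 128, 121, 114 and 99.5 CPM in sh-Ctl and 120, 118, 113 and 98.0 CPM in sh-Acsf3. Ifit3, Irf7, Usp18, Rsad2 and Stat2 did not fall steadily over the sh-Acsf3 numbers. The labels do not say what a number stands for.

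The calls changed with the libraries and the tool. Rsad2 missed the threshold in limma-voom (adjusted p = 0.0574) and Irf7 with scaling by library size only (edgeR adjusted p = 0.0584). Without replicate 2 of every group Ifit1 alone passed (-0.65, edgeR adjusted p = 0.0283), and without replicate 1 the same held (-0.63, 0.00876). Irf7 had an adjusted p of 0.0783 without replicate 1 and 0.14 without replicate 2. Rsad2 had 0.0593, 0.119 and 0.0694 without replicate 1, 2 and 3. In all 4 fits without a replicate number both genes stayed below 0 (log2). Irf7 lay between -0.48 and -0.27, and Rsad2 between -0.75 and -0.48.

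Genes outside the set that varied most like it were other interferon-responsive genes. Likeness was the Pearson correlation, over 64 libraries after group means were subtracted, with the mean standardized level of the 7 genes. Among the 10 highest were Rnf213 (0.80), Rtp4 (0.72), Apol9a (0.70), Gbp3 (0.70), Irgm1 (0.68), Lgals3bp (0.67), Ddx60 (0.67), Apol9b (0.66) and Ifi204 (0.65). For these genes it was 0.70 to 0.86 over 32 sh-Ctl libraries, but 0.03 to 0.66 over 32 sh-Acsf3 libraries. The lowest in sh-Acsf3 were Apol9b (0.03), Apol9a (0.25) and Irgm1 (0.31). The likeness was thus mainly that of the sh-Ctl libraries, and the difference between treatments was not tested. By the averaged effect none of those named fell and 1 rose. Rnf213, an interferon-induced ubiquitin ligase, was at -0.15 ± 0.10 (log2, SE; edgeR adjusted p = 0.372). Ifi204, a DNA-binding protein of the IFI200 family, rose by 0.38 ± 0.12 (edgeR adjusted p = 0.0276).

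The rest of the pathway was described from the ligand to the target genes. Transcripts of the ligands were at the edge of detection: Ifnb1, Ifna2, Ifna4, Ifnl2 and Ifnl3 had 0 UMIs in all 64 libraries, and Ifng had fewer than 10. Of 25 measured ligand and nucleic acid sensor genes, 12 were tested, 0 rose and 1 fell. That one was Dhx58, which encodes LGP2, a regulator of the RNA sensors RIG-I and MDA5, with a difference of -0.56 ± 0.13 (log2, SE; edgeR adjusted p = 0.00153) from 8.76 ± 4.38 CPM to 5.75 ± 2.35 CPM. The sensor Tlr3 was at -0.19 ± 0.12 and the kinases Tbk1 and Ikbke at -0.11 ± 0.08 and 0.21 ± 0.15, and none of these passed. The median of the 12 was -0.06. Of all tested genes 8.26% rose and 6.21% fell, which is near the counts of this list, so Dhx58 is named as a value only. Sting1, the adaptor of cytosolic DNA sensing, named here after its values were seen, missed the filter on low counts. Leaving out any library makes a group smaller and so loosens the filter, and Sting1 entered all 64 such fits. In them it was higher in sh-Acsf3, by 0.96 to 1.16 (edgeR adjusted p from 1.20e-05 to 0.000471). These fits share nearly all their libraries, so they are not separate tests. Of genes in the lists below, Tgtp1 and Cd8b1 also entered, in 61 fits each, and passed in 43 and 61 of them.

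Of 20 receptor and JAK-STAT genes 19 were tested, 2 rose and 1 fell, with a median of 0.07, where 8.26% of all tested genes rose and 6.21% fell. These shares are near those of the list, and the 3 genes are named as values only. The number that rose was 4 with limma-voom, DESeq2, a replicate block or without the high-Saa1 libraries, and 6 with no filter. Ifnar2, a chain of the type I interferon receptor, fell by 0.21 ± 0.05 (log2, SE; edgeR adjusted p = 0.000579), from 61.8 ± 8.02 CPM to 53.5 ± 6.79 CPM. Ifngr1, a chain of the interferon-gamma receptor, rose by 0.28 ± 0.06 (adjusted p = 0.000354), and Il10rb, a chain shared by the receptors of interferon-lambda and interleukin-10, by 0.32 ± 0.10 (0.0184). Without sh-Ctl ZT6 replicate 1 the number of rises was 4, and without any one of sh-Ctl ZT18 replicate 3, sh-Ctl ZT21 replicate 3, sh-Acsf3 ZT9 replicate 1 or sh-Acsf3 ZT21 replicate 4 the number of falls was 2.

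Among 65 other measured interferon-stimulated genes, 49 were tested, 5 rose and 3 fell, and their median of -0.01 equalled that of all genes. Ifi27l2b, of the same family as Ifi27, rose by 1.09 ± 0.19 (log2, SE; edgeR adjusted p = 3.10e-05) and Ifi203 by 0.38 ± 0.09 (0.00119). Adar, which edits double-stranded RNA, fell by 0.33 ± 0.08 (adjusted p = 0.00329), and Ifitm2, which blocks virus entry, by 0.20 ± 0.05 (0.00365). Of all tested genes 8.26% were higher and 6.21% lower, as given above. These shares are near those of the list, and its genes are named as values only. In the fit of the daily cosine, 21 of the 49 were rhythmic in sh-Ctl and 7 in sh-Acsf3. Of all tested genes 19.4% and 19.6% were. Of the 21, 17 had a peak from ZT0 to ZT6, a share that was not computed for all rhythmic genes. The counts of this list moved with the libraries: 8 were rhythmic in sh-Ctl without replicate 1 of every group and 10 without replicate 4, and in sh-Acsf3 1 without replicate 2, 2 without replicate 3 or the pancreas libraries, and 3 without replicate 4, with no filter or with library size only. The number that fell was 0 without replicate 2, 1 without replicate 1 or the pancreas libraries, 5 with a replicate block and 7 with no filter, and the number that rose was 2 without replicate 3, 3 without replicate 4, and 8 with limma-voom or no filter.

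**Figure D4:**
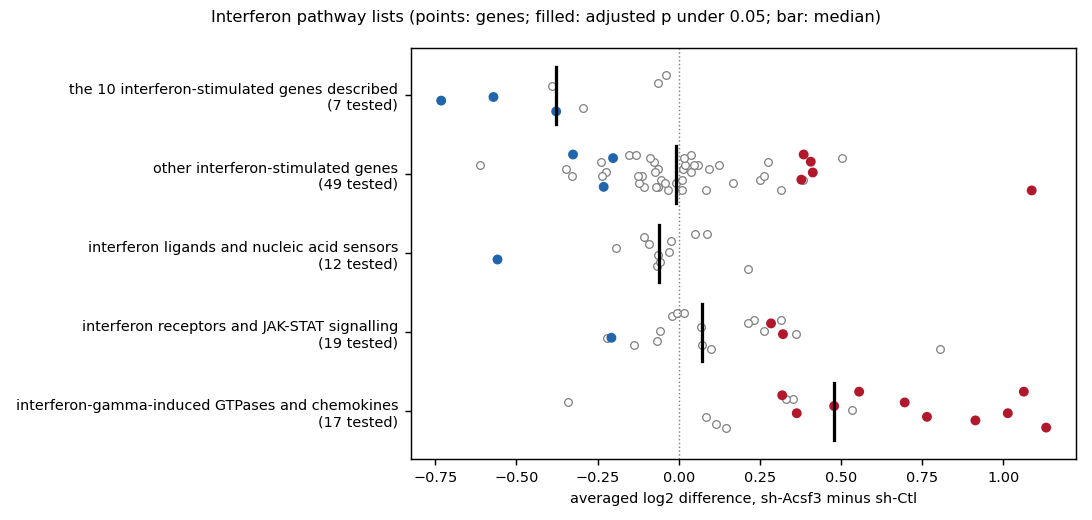
Difference between sh-Acsf3 and sh-Ctl averaged over 8 times (log2, x axis) for each tested gene of 5 interferon lists. Points are genes, filled blue (lower) or red (higher) where the adjusted p was under 0.05, and bars are medians; the top list has its median at -0.38 and the interferon-gamma list at 0.48.

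The list that moved upward was that of GTPases and chemokines induced by interferon-gamma, the type II interferon made by T and NK cells. Of its 24 genes 17 were tested, 10 rose and 0 fell, with a median of 0.48. The chemokine gene Cxcl9, which attracts T cells, rose from 19.4 ± 10.2 CPM to 42.2 ± 19.4 CPM, by 1.13 ± 0.16 (log2, SE; edgeR adjusted p = 6.01e-07). Gbp2, a guanylate-binding protein, rose by 1.01 ± 0.18 (3.97e-05), Ciita, the regulator of MHC class II genes, by 1.06 ± 0.22 (0.000278), and Irf8 by 0.70 ± 0.11 (2.08e-06). Of its 14 genes with a promoter window 11 held the ISRE core and 7 TTCNNNGAA, against 6 and 2 of the 8 windowed genes above. The number of rises was 6 without sh-Acsf3 ZT18 replicate 1 and 5 without replicate 3 of every group.

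Markers of other cells moved with the treatment in these libraries. The summed level of 14 T and NK cell markers ran from 2.80 to 15.3 CPM in sh-Ctl (median 6.10) and from 10.2 to 39.5 CPM in sh-Acsf3 (median 26.6), and none was at 0 UMIs in either treatment, though Ncr1 had fewer than 10 UMIs in all. All 5 that were tested rose, including Nkg7 by 2.68 ± 0.20 and Trbc2 by 2.24 ± 0.20 (log2, SE; edgeR adjusted p = 2.96e-17 and 4.20e-14). Of 11 Kupffer cell and macrophage markers 6 rose and 0 fell (median 0.38), among them Cd68 by 0.83 ± 0.13 and C1qc by 0.62 ± 0.10, and their sum ran from 120 to 474 CPM in sh-Ctl and from 149 to 478 CPM in sh-Acsf3. Of 6 tested monocyte and neutrophil markers 4 rose, and all 9 summed to 69.0 to 235 CPM in sh-Ctl and 94.3 to 279 CPM in sh-Acsf3. Of 4 tested B cell markers 3 rose, and all 7 summed to 10.1 to 55.8 CPM and 17.3 to 213 CPM. Plasmacytoid dendritic cells are the main makers of type I interferon, and of their 8 markers 2 were tested and 1 rose, Ly6d by 1.36 ± 0.29 (edgeR adjusted p = 0.000521). Ly6d is also a B cell gene, and its call was lost without sh-Acsf3 ZT21 replicate 3. Sinusoidal endothelial markers stayed without a call (0 of 10, median 0.06), and of 10 hepatocyte markers 1 rose and 3 fell (median -0.03). Hepatocyte markers, the check of the liver label, summed to 91433 to 165370 CPM. The part of these cells in the differences of the interferon-stimulated genes was not tested.

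Acute-phase genes are made by hepatocytes in response to interleukin-6 and related signals. Of 12 tested 0 rose and 8 fell (median -0.55), including Lbp by 0.47 ± 0.09 and Itih4 by 0.50 ± 0.13 (log2, SE; edgeR adjusted p = 4.60e-05 and 0.00432). Their sum ran from 3002 to 25134 CPM in sh-Ctl and from 2403 to 4574 CPM in sh-Acsf3. Without all 4 sh-Ctl libraries with high Saa1, 3 of the 12 rose and 2 fell (median 0.11), and without any one of the 4 only 3 or 4 fell. Without the 4 sh-Ctl libraries with high Saa1, Ifit1 remained at -0.65 (adjusted p = 0.00432) and Rsad2 at -0.50 (0.0327) in the edgeR test. In those 4 libraries Ifit1 was at 13.9 to 21.5 CPM, within the 4.34 to 79.5 CPM of the other 28 sh-Ctl libraries. Without the 8 libraries with pancreas transcripts, Ifit1, Rsad2 and Irf7 still passed, at -0.73, -0.62 and -0.37.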

How the data were processed

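RNA of mouse liver was counted in 64 libraries by barcoded bulk sequencing with unique molecular identifiers (UMIs). The deposited values are raw UMI counts per gene. Reads were aligned with STAR to GRCm38 (mm10), per the submitters' processing notes; the STAR version, the annotation and the rules for merging UMIs were not given in the sources used here. Column names gave each library its labelled group and number. Replicates of a group differed beyond sampling noise in each of 96 pairs (chi-square per degree of freedom at least 2.54).

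The 64 libraries entered 1 robust quasi-likelihood fit of 16 group means (edgeR 4.0.16, R 4.3.3) after filterByExpr (minimum count 10, minimum total 15; 10097 genes kept) and TMM scaling. The common biological coefficient of variation was 0.189, with 48 residual degrees of freedom. The difference sh-Acsf3 minus sh-Ctl was tested averaged over 8 times, at each time, and for equality over times. Rhythm was a mean with a 24 h cosine and sine per treatment. Benjamini-Hochberg adjustment ran over all tested genes (threshold 0.05), and SEs are the log2 difference divided by the square root of F. The 95% intervals are normal intervals from these SEs. The fits were tested on simulated counts with the same coefficient of variation, 0.189, for every gene. That simulation held no differences between replicate numbers and no libraries that stood apart, so it does not cover these features of the genes described.

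Correlations used log2 CPM with a prior count of 2. Named genes were the 10 genes, Acsf3, up to 4 genes per list with the smallest p for the averaged effect, and the 10 most correlated genes. Promoter and start positions are RefSeq's, and gene spans are those of GENCODE M21. Alternatives were RLE factors, library size only, no filter, a mean CPM of at least 5, limma-voom (limma 3.58.1), DESeq2 1.42.0, a replicate block, and leaving out each replicate number or library. Leaving out libraries with Saa1 above 1000 CPM or pancreas genes above 100 CPM, and each library in the rhythm fit, was chosen after seeing the data. The genes and lists were chosen with earlier results of these data known. One gene among those most like the set is not reported here.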

Additional observations from a re-analysis of the deposited data

Results flagged for a closer look

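Of 112 groups of 4 libraries (7 genes in 16 groups), 2 held a library far from the other 3, where chance gives about 1 in 20 such groups, or 5.6. In sh-Acsf3 liver at ZT6, replicate 2 had 10.44 CPM of Ifit1, below the 12.6 to 12.9 CPM of the other 3. In sh-Ctl liver at ZT21, replicate 1 had 12.82 CPM of Ifit3, above the 6.10 to 6.95 CPM of the other 3. The ZT0 control library with the highest Ifit1, Ifit3, Rsad2 and Usp18 was not among them.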

How the results depend on the processing

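Ifit1 was lower on average, past the threshold, under every alternative run, and in all leave-one-library fits, and 4 genes kept their rhythm in sh-Ctl under all alternatives other than leaving out libraries. The number of genes lower on average was 3, and 5 with no filter on low counts, where Ifit3 and Usp18 also passed. Without one replicate number it ran from 1 to 4, and without one library from 3 to 4. The single-time count of 1 became 0 with library size only, with limma-voom and without the pancreas libraries, 2 with DESeq2 and without the high-Saa1 libraries, and 10 with no filter. Without one replicate number or one library it ran from 0 to 3. The number of genes with unequal effects over time was 0, and 5 with no filter. The sh-Acsf3 rhythm count of 1 became 2 with DESeq2, and ran from 0 to 2 without one replicate number or one library. The cause of these changes was not tested. None of the 10 genes passed the test of differing rhythm in any fit that held it. The averaged Ifi27 value turned to 0.012 with library size only, and that of Stat2 to 0.065 without replicate 2 and 0.0019 without sh-Ctl ZT21 replicate 1. Over all genes, 834 rose and 627 fell, against 1125 and 247 with library size only, 1233 and 676 with no filter, and 523 and 264 without replicate 3.

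Pooled over the 8 times, replicate numbers showed little pairing of sh-Ctl with sh-Acsf3 libraries. Over 32 same-numbered pairs the correlation of deviations ran from -0.16 to 0.26 (median 0.02). Of these pairs 7 were over 0.1, and 8 libraries correlated best with their own number. All 7 pairs over 0.1 and 6 of the 8 were at ZT0, ZT3 or ZT6, so the pooled values do not describe those times. With a replicate block 4 genes were lower on average (Ifit3 in addition), 1 gene passed at a single time, and 2 were rhythmic in sh-Acsf3. Isg15, at 72 UMIs in all, and Ifit2 entered only the fit with no filter. The fits without the pancreas libraries, without replicate 3 and without replicate 4 tested 8 of the 10 genes, against 7 in the main fit.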
